A study of Danio rerio with 8 samples.

Results

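Livers of zebrafish that carry a doxycycline-inducible Myc transgene were compared with livers of their wild-type siblings, with both genotypes on doxycycline, so that genotype differs while the drug does not. The comparison uses the 4 libraries whose titles name the group M+D+ (transgenic, on doxycycline, 2 libraries) or M-D+ (wild type, on doxycycline, 2 libraries), out of 8 libraries in the study. The transgenic fish are Tg(fabp10:TA; TRE:Myc; krt4:GFP): the fabp10 promoter, which is active in hepatocytes, drives a transactivator, the transactivator switches on Myc from the TRE promoter when doxycycline is present, and a krt4 promoter drives a green fluorescent reporter. Both groups had doxycycline from 21 days after fertilization, in 6-L tanks of about 25 adults, and the submitters describe M+D+ as liver tumour. The other 4 libraries, transgenic fish without the drug (M+D-) and wild-type siblings without it (M-D-), 2 each, are used here only for their spread and as a reference. The labels used here do not give the dose, age at sampling, sex, number of fish in a library or the Myc gene in the transgene. They do not say if the 2 libraries of each group are from different fish or from different pools of fish, so the p-values cover library-to-library spread, which may be technical.

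Myc is a transcription factor that, with its partner Max, binds E-box sequences and is known for driving the genes of ribosome production, protein synthesis, nucleotide synthesis and cell division. Hepatocytes, the main cells of the liver, secrete most plasma proteins through the endoplasmic reticulum and carry out gluconeogenesis, fatty acid oxidation and the breakdown of drugs and amino acids. Doxycycline, used here as the inducer, is an antibiotic that blocks bacterial ribosomes and is known to affect mitochondrial ribosomes as well.

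The assay was 3' RNA-SAGE, in which each transcript is counted by a short tag read close to its 3' end. Values are CPM, the share of a library's tags that a transcript row holds. Library totals were 1682372 and 4414589 tags for M-D+ 1 and 2 and 6399932 and 2864061 tags for M+D+ 1 and 2. A value of 0 allows a level of up to 1.783 CPM in M-D+ library 1 and 0.469 CPM in M+D+ library 1 (3 tags, counting error only). At least 5 CPM in 2 or more of the 4 libraries was reached by 4288 transcript rows of 14164 listed, and these were tested. Within groups, library 1 and library 2 correlated across rows, in log2 values, with a Pearson r of 0.894 for M-D+, 0.928 for M+D+, 0.964 for M-D- and 0.971 for M+D-.

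The M-D+ libraries stand apart from the other 6, and the scale of the comparison depends on it. Both M-D+ libraries lay above all 6 others in 1932 of the 4288 rows (45.1%), and both lay below in 60. For M+D+ the shares were 4.13% above and 26.9% below. The 50 most abundant rows of each library held 71.2% and 66.5% of tags in M+D+, 53.1% in M-D+ library 1 and up to 66.1% in the others. The 5 most abundant held 30.8% and 24.1% in M+D+ compared with 16.4% and 30.8% in M-D+, which overlap. Scaling by trimmed mean of M-values (TMM), which sets most rows to a common level, gave factors of 1.7129 and 1.4226 for M-D+ 1 and 2, 0.7012 and 0.8566 in M+D+, and 0.8171 to 0.9608 elsewhere. Whether the broad difference lies in M-D+, in M+D+ or in the make-up of the RNA was not tested. Counts of calls and list medians are therefore given on the deposited scale and after TMM scaling. A change of a named gene is on the deposited scale unless TMM is named, and after TMM scaling those of the named genes were higher by 0.59 to 1.01 on the log2 scale (median 0.97). Where a gene's call is said to fall short without a library, the deposited scale is meant. Such remarks leave out TMM scaling. There the calls of psma3, psmd2 and hadhab, genes lower on both scales, fell short without any 1 of the 4 libraries.

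On the deposited scale 119 rows (2.78%) were higher and 1930 (45.0%) lower in M+D+ than in M-D+ (limma on log2(CPM + 1), Benjamini-Hochberg adjusted p below 0.05). Over all rows the median log2 change was -1.05, a 2.07-fold lower level, and 85.4% of rows lay below 0. After TMM scaling the median was -0.12, with 360 rows (8.40%) higher and 354 (8.26%) lower, so the lower share of calls moved from 94.2% to 49.6%. All 119 rows higher on the deposited scale were also higher after TMM scaling, and all 354 rows lower after TMM scaling were also lower on the deposited scale. These 119 and 354 rows are called on both scales, and the accounts below lead with them. No row was called in opposite directions. Before TMM scaling both M+D+ libraries lay above both M-D+ libraries in 288 rows (6.72%) and below both in 2839 (66.2%). The filter on low values was passed only through M+D+ by 23 of the 119 rows and only through M-D+ by 146 of the 354. Such rows had to differ between the groups. A tested gene with both M+D+ values under 5 CPM passed only through M-D+. Such genes lower on both scales include sycn.2, ptges3b, ahsa1b, mrpl24 and sesn3.

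The calls rest on a spread shared by all 8 libraries. Fitted to the 4 libraries alone, limma called 38 rows higher and 930 lower on the deposited scale but 8 higher and 1 lower after TMM scaling. On tag counts recovered from the CPM values, edgeR called 342 higher and 328 lower with 8 libraries and none with 4, where 996 rows had an unadjusted p below 0.05. Of the 119 rows higher on both scales, edgeR and DESeq2 with 8 libraries each called all 119. Of the 354 lower, edgeR called 312 and DESeq2 285. Those that edgeR did not call include sesn3, fth1a, elovl2 and hmgb2a. Without M+D+ library 1 the number called on both scales went from 119 to 59 of these rows and from 354 to 74. Without M+D+ library 2 it was 50 and 189, without M-D+ library 1 it was 83 and 140, and without M-D+ library 2 it was 63 and 210.

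**Figure D1:**
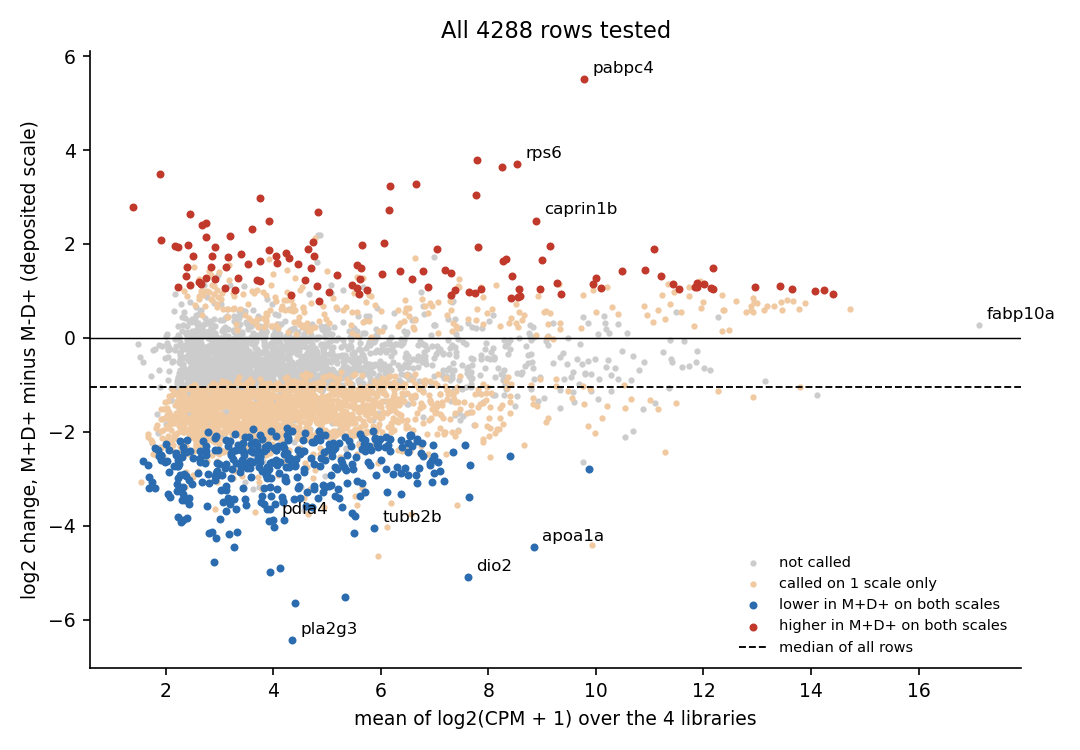
Each point is 1 of the 4288 transcript rows tested. The x axis is the mean of log2(CPM + 1) over the 4 libraries and the y axis the log2 change of M+D+ minus M-D+ on the deposited scale. Rows higher on both scales are red (119), rows lower on both scales blue (354), and rows called on 1 scale only are tan. The dashed line at -1.05 is the median of all rows, and most tan points lie around it, between the solid line at 0 and the blue points.

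Of the 12 genes named for the largest increases, among rows with a symbol and a mean of at least 20 CPM, pabpc4 had the largest. It encodes a cytoplasmic poly(A)-binding protein that coats mRNA tails. It stood at 6818 and 5239 CPM in the M+D+ libraries and at 143 and 117 in M-D+, giving a log2 change of 5.52 ± 0.46 (SE; limma adjusted p = 0.00267; 6.52 after TMM scaling). Levels in M-D-, at 82.2 and 75.7, lay near those of M-D+, while M+D- was intermediate at 1426 and 515. The M+D+ libraries were thus above all other libraries, and the uninduced transgenic libraries came next.

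Among the next 4 were 3 ribosomal protein genes with a common pattern. For rps6, a small-subunit protein that is phosphorylated downstream of the TOR kinase, the values were 982 and 1809 CPM in M+D+ versus 140 and 73.6 in M-D+, giving a log2 change of 3.70 ± 0.43 (limma adjusted p = 0.00267; 4.70 after TMM scaling). The large-subunit genes rpl12 and rpl4 changed by 3.80 ± 0.50 and 3.63 ± 0.45 (limma adjusted p = 0.003 and 0.00267; 4.79 and 4.63 after TMM scaling). In rpl12 the M+D+ libraries held 526 and 1306 CPM and M-D+ 81.4 and 42.4, and the 4 libraries without doxycycline held 59.4 to 93.1. For tpt1, the translationally controlled tumour protein, the values were 200.2 and 488 CPM in M+D+ against 44.0 and 22.4 in M-D+ (log2 change 3.27 ± 0.48, limma adjusted p = 0.00364; TMM 4.26). In all 4 genes M+D+ library 2 was the highest library, M+D+ library 1 the next, and the 6 others lay close together.

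The large-subunit gene rpl22 was higher by 3.24 ± 0.31, with 194 and 251 CPM in M+D+ compared with 26.8 and 18.8 in M-D+ (limma adjusted p = 0.00267; TMM 4.22). For caprin1b, which encodes a cytoplasmic RNA-binding protein of RNA granules, the change was 2.49 ± 0.28 (limma adjusted p = 0.00267; TMM 3.5). Its values were 955 and 1314 CPM in M+D+ against 219 and 179 in M-D+ and 515 to 577 in the 4 libraries without doxycycline, so that M-D+ was lowest as well as M+D+ highest. It was the only gene of the 12 largest rises for which both groups lay outside all other libraries on the deposited scale, while after TMM scaling this held for 8 of the 12. The gene eif4ebp3l encodes a binding protein that holds back the cap-binding factor eIF4E. It stood at 36.7 and 33.2 CPM in M+D+ versus 4.16 and 7.02 in M-D+ (log2 change 2.48 ± 0.35, limma adjusted p = 0.00357; TMM 3.35), with 14.7 and 15.0 in M+D-.

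The rest of the 12 largest rises were metabolic or secreted-protein genes and rpl9. The muscle-type phosphoglycerate mutase pgam2, a glycolytic enzyme, stood at 63.9 and 78.9 CPM against 8.92 and 11.8 (log2 change 2.68 ± 0.34, limma adjusted p = 0.00274). The complement gene c3a.2 stood at 52.5 and 53.8 CPM against 10.1 and 14.7 (log2 change 2.03 ± 0.38, limma adjusted p = 0.0064). The gluconeogenic enzyme gene pck1 varied widely within each group, at 80.9 and 16.8 CPM in M+D+ compared with 11.3 and 0.91 in M-D+. In M+D+ it overlapped the 4.86 to 19.32 CPM of the libraries without doxycycline. Its log2 change of 2.98 ± 1.02 (limma adjusted p = 0.0435) fell short of the threshold when M-D+ library 2 (1.63) or M+D+ library 1 (1.87) was left out. For rpl9 the change of 2.02 ± 0.54 (limma adjusted p = 0.019) fell short when M-D+ library 2 (1.64) or M+D+ library 2 (1.17) was left out. The other 10 of the 12 stayed called on both scales without any 1 of the 4 libraries.

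Of the 12 genes named for the largest decreases, 5 passed the filter on low values only through M-D+, pla2g3, hsd11b2 and elovl6 among them. The phospholipase A2 gene pla2g3 had 0 and 3.84 CPM in M+D+ versus 428 and 83.1 in M-D+, giving a log2 change of -6.43 ± 0.89 (limma adjusted p = 0.00342; -5.70 after TMM scaling). The libraries without doxycycline held 9.56 to 30.9 CPM, between the groups compared. The deiodinase gene dio2, whose enzyme makes the active thyroid hormone, had 10.8 and 94.6 CPM in M+D+ against 1237 and 1059 in M-D+ (log2 change -5.09 ± 0.84, limma adjusted p = 0.00469; TMM -4.10). Both M+D+ libraries were below, and both M-D+ libraries above, the 168 to 340 CPM of the other 4. The gene hsd11b2, whose enzyme inactivates cortisol, had 0.78 and 3.14 CPM in M+D+ compared with 35.7 and 202.1 in M-D+ (log2 change -4.99 ± 0.83, limma adjusted p = 0.00479; TMM -4.15). Here M-D+ overlapped the 37.5 to 203 CPM of the libraries without doxycycline, and M+D+ lay below all of them.

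The apolipoprotein gene apoa1a, for the main protein of high-density lipoprotein, showed the same one-sided pattern at a high level. It stood at 60.8 and 155.7 CPM in M+D+, at 1339 and 3462 in M-D+, and at 1407 to 1679 in the libraries without doxycycline (log2 change -4.45 ± 0.54, limma adjusted p = 0.00267; TMM -3.45). The interferon-inducible gene ifi27.1 had 3.91 and 6.28 CPM in M+D+ compared with 111 and 661 in M-D+ and 23.4 to 74.3 elsewhere (log2 change -5.51 ± 0.77, limma adjusted p = 0.00344; TMM -4.57). The 2 M-D+ libraries differed more from each other in ifi27.1 than did the 2 of any other group.

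In the other 7 of the 12 largest falls M-D+ stood above all 6 other libraries. M+D+ overlapped the libraries without doxycycline in 5 of the 7 and lay below them in zgc:114046 and, on the deposited scale but not after TMM scaling, in elovl6. The fatty acid elongase gene elovl6 had 26.8 and 54.1 CPM in M-D+ against 0 and 1.05 in M+D+ and 1.11 to 4.77 elsewhere. The tubulin gene tubb2b had 316 and 181 CPM in M-D+ compared with 9.38 and 19.2 in M+D+ and 12.2 to 46.6 elsewhere. The endoplasmic reticulum co-chaperone gene dnajb11 had 92.7 and 44.2 CPM in M-D+ against 1.41 and 5.59 in M+D+ and 1.77 to 7.59 elsewhere. Their log2 changes were -4.77 ± 0.49, -4.05 ± 0.41 and -4.03 ± 0.55 (limma adjusted p of 0.00327 or less; -4.09, -3.07 and -3.14 after TMM scaling). The brain-type fatty acid-binding protein gene fabp7a changed by -4.91, the read-through row nmnat1-rbp7a by -4.46, zgc:114046 by -4.13 and manf, an endoplasmic reticulum stress-induced secreted factor, by -3.90 (limma adjusted p of 0.00655 or less). Without any 1 of the 4 libraries all 12 falls stayed called on the deposited scale, and 7 did so on both scales.

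**Figure D2:**
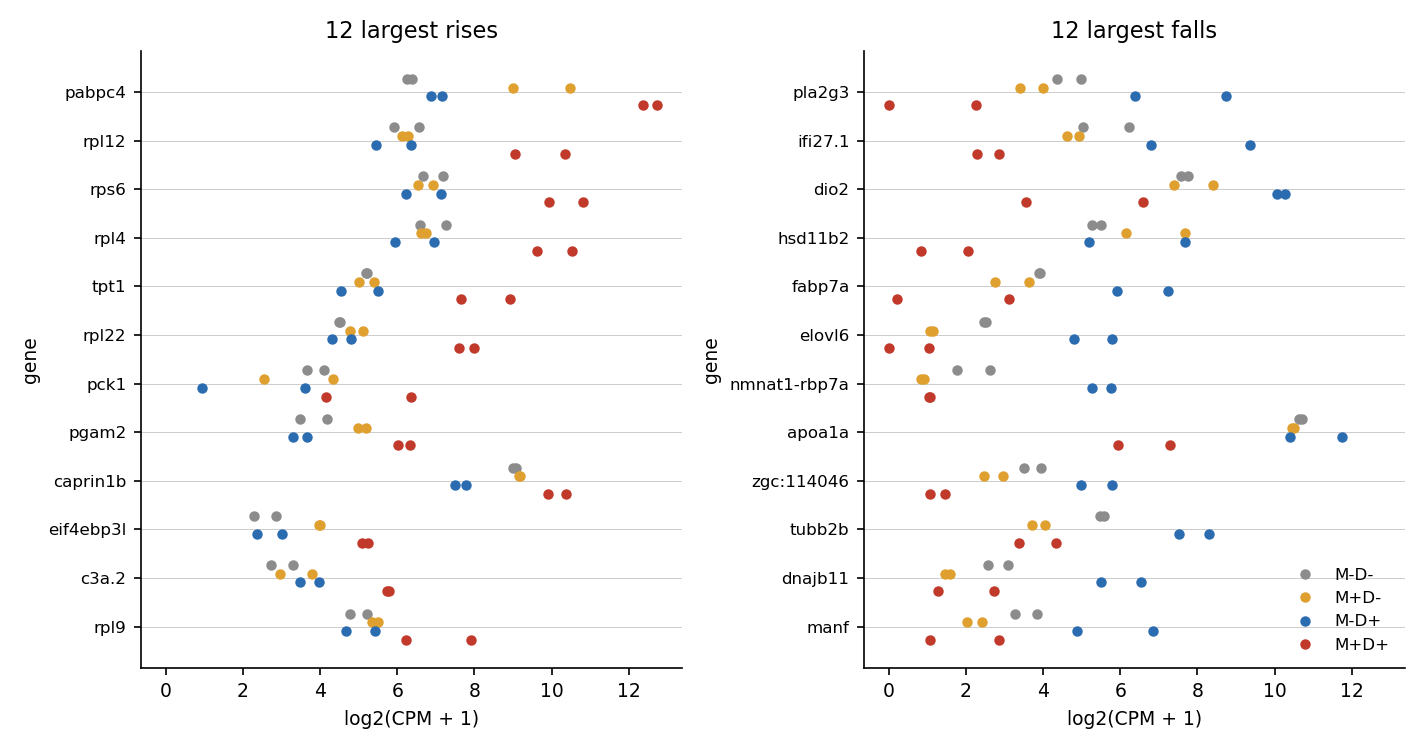
Values of the 12 genes with the largest rises and the 12 with the largest falls on both scales, as log2(CPM + 1) on the x axis, with 1 point a library and 1 color a group. On the left the M+D+ points lie to the right of the others in 11 of the 12 genes, as in pabpc4 and rps6. In pck1 they overlap the libraries without doxycycline. On the right the M-D+ points often lie farthest right while M+D+ overlaps or approaches the libraries without doxycycline, as in tubb2b and dnajb11, whereas in apoa1a and hsd11b2 M+D+ alone is set apart.

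Across the calls this difference in position held on the deposited scale and was much smaller after TMM scaling. Of the 119 rows higher on both scales, M+D+ lay above all 6 other libraries in 94 (79.0%) and M-D+ below all 6 in 31 (26.1%), which took in 31 of the 60 such rows among all 4288. Of the 354 lower, M+D+ lay below all 6 in 237 (66.9%) and M-D+ above all 6 in 315 (89.0%). After TMM scaling the same 119 rows had 98 (82.4%) and 85 (71.4%) in these positions, and the 354 rows had 211 (59.6%) and 216 (61.0%). Over all rows the TMM-scaled shares were 11.8% for M+D+ above, 10.9% for M-D+ below, 13.3% for M+D+ below and 12.3% for M-D+ above. Since both groups enter the choice of these rows, these shares describe them and are no test.

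The genes that could show the transgene or its promoters were read as a check of the labels. The endogenous genes mycb, mych and myca are zebrafish Myc genes, and since the Myc gene of the transgene is not named, their rows cannot check it. For mycb the values were 2.19 and 24.4 CPM in M+D+ versus 115 and 22.4 in M-D+, which overlap. Its log2 change was -2.53 ± 0.99 (limma adjusted p = 0.0639), and -1.61 after TMM scaling (limma adjusted p = 0.255). For mych they were 0.63 and 6.28 CPM against 25.6 and 7.48 (log2 change -2.12 ± 0.84, limma adjusted p = 0.0664). Without doxycycline mych had 1.0 and 3.09 CPM in M+D- against 40.9 and 17.6 in M-D-. There mycb had 27.5 and 20.6 CPM in M+D- against 70.65 and 73.7 in M-D-, and limma called neither gene. The row of myca was at 0 in every library except M+D+ library 1, which held 0.16 CPM, under the floor. The hepatocyte gene fabp10a, whose promoter drives the transactivator, took 18.8% and 13% of tags in M+D+ compared with 7.9% and 21.0% in M-D+. Its log2 change was 0.27 ± 0.50 (limma adjusted p = 0.668), and it turned negative without M-D+ library 1 (-0.43). For krt4, whose promoter drives the reporter, it was -1.21 ± 0.59 (limma adjusted p = 0.121; -0.36 after TMM scaling).

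Many genes of cytosolic ribosomal proteins, the structural proteins of the ribosome, were higher in M+D+. Of 75 rows listed, 72 were tested, and 25 (34.7%) were higher on both scales, against 2.78% of all rows. After TMM scaling 63 of 72 were higher, against 8.40% of all rows. Their median log2 change was 0.87 on the deposited scale and 1.88 after TMM scaling, against -1.05 and -0.12 for all rows. Beyond rpl12, rps6, rpl4, rpl22 and rpl9, the other 20 genes changed by 0.94 to 1.96. As an example chosen after its values were seen, rps29 stood at 28657 and 26474 CPM in M+D+ against 16134 and 11390 in M-D+, giving a log2 change of 1.02 ± 0.33 (limma adjusted p = 0.035). Its call fell short in most fits with 1 of the 4 libraries left out. With the 4 libraries alone it was not called (limma adjusted p = 0.162). M+D+ lay above all 6 other libraries in 43 of the 72 rows, and in 54 after TMM scaling, against 4.13% and 11.8% of all rows. The exception was rpl37, at 4.53 and 7.68 CPM in M+D+ versus 17.2 and 13.1 in M-D+, lower on the deposited scale (log2 change -1.21, limma adjusted p = 0.0292) but not after TMM scaling (-0.30). Its call fell short without M-D+ library 1 (-1.03) or M+D+ library 1 (-0.89). Members of this family share sequence with pseudogenes and copies, and the sources used here do not give how tags were assigned to them, so single rows are uncertain in that respect.

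Together the ribosomal protein rows held 45.9% and 46.9% of all tags in M+D+ compared with 33.7% and 20.5% in M-D+, with 26.8% to 37.7% in the 4 libraries without doxycycline. Both M+D+ libraries were thus above the other 6. An exact two-sided permutation test of 2 against 2 libraries gave p = 0.333, which is the smallest such a design allows. The difference of 19.3 percentage points was 12.7 with M-D+ library 2 left out, against 25.9 with library 1 left out. The number of these genes higher on both scales was 9 without M+D+ library 1, 10 without M+D+ library 2, 58 without M-D+ library 1 and 9 with M-D+ library 2 left out.

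**Figure D3:**
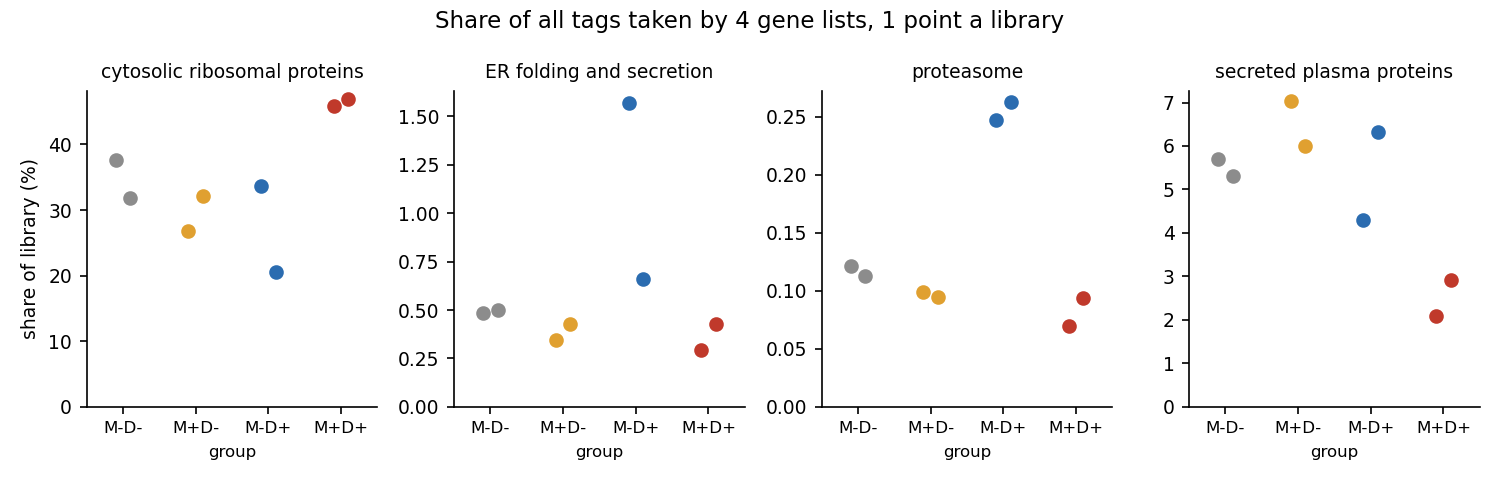
Share of all tags of a library (y axis, in percent, from 0) taken by the rows of 4 gene lists, with 1 point a library in the 4 groups on the x axis. Ribosomal protein rows are highest in M+D+, at 45.9% and 46.9%. The endoplasmic reticulum and proteasome rows are highest in M-D+, and secreted plasma protein rows lowest in M+D+, at 2.1% and 2.92%.

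Translation factor genes were called in both directions. Of 59 tested, 9 (15.3%) were higher and 3 (5.1%) lower on both scales, against 2.78% and 8.26% of all rows, and their median was -0.51 on the deposited scale and 0.44 after TMM scaling. Besides pabpc4 and eif4ebp3l, 6 of the 9 were subunits or a partner of eIF3, the factor that brings the small ribosomal subunit to mRNA. For eif3i the values were 519 and 577 CPM in M+D+ versus 210 and 227 in M-D+ (log2 change 1.32 ± 0.27, limma adjusted p = 0.0083). The 5 others, named after their values were seen, were eif3ha, eif3c, eif3s6ip, eif3k and eif3d, and the last of the 9 was the elongation factor gene eef1g. Of 12 tested rows with an eif3 symbol, 6 were higher on both scales, and 1, eif3jb, was lower on the deposited scale only. The 3 lower genes were eif4a1a, eif4e1c and eif4eb. The helicase gene eif4a1a had 10.2 and 10.5 CPM in M+D+ compared with 129.6 and 75.7 in M-D+ (log2 change -3.14 ± 0.32, limma adjusted p = 0.00267), while M+D- had 11.5 and 12.2 and M-D- had 28.6 and 30.1. The cap-binding protein genes eif4e1c and eif4eb, named likewise, changed by -3.44 and -2.59 (limma adjusted p = 0.00666 and 0.00563). Without 1 library the 9 higher became 4 to 12 and the 3 lower 1 to 4.

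Few ribosome biogenesis genes, which process ribosomal RNA in the nucleolus, were called on both scales. Of 38 tested, 2 (5.3%) were higher and 4 (10.5%) lower, near the 2.78% and 8.26% of all rows, and their median was -1.55 on the deposited scale and -0.61 after TMM scaling. The nucleolar helicase gene ddx21 stood at 376 and 517 CPM in M+D+ versus 191 and 68.0 in M-D+ (log2 change 1.94 ± 0.47, limma adjusted p = 0.0136), and its call fell short without M+D+ library 2 (1.71). The other higher gene was rcl1, at 0.96 (limma adjusted p = 0.0251). Its M+D+ values of 264 and 338 CPM overlapped the 287 and 302 of M+D-. Its call fell short without M-D+ library 1 (0.89) or M+D+ library 2 (0.78). Nucleolin, encoded by ncl, a classical Myc target in mammals, stood at 135 and 130.2 CPM in M+D+ compared with 665 and 386 in M-D+. It was lower on the deposited scale (log2 change -1.92 ± 0.34, limma adjusted p = 0.00553) but not after TMM scaling (-0.92, adjusted p = 0.0945 with limma). The 4 genes lower on both scales, named after their values were seen, were rrs1, grwd1, emg1 and tsr1, and 0 to 5 members were lower without 1 library. Of 13 tRNA synthetase genes, which charge tRNAs with amino acids, 1 (7.7%) was lower on both scales, near the 8.26% of all rows. It was cars1, at 7.81 and 8.03 CPM in M+D+ against 115 and 58.0 in M-D+ (log2 change -3.22 ± 0.37, limma adjusted p = 0.00267).

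Endoplasmic reticulum genes of protein folding and secretion were lower in M+D+ or not called. Of 47 tested, 20 (42.6%) were lower on both scales, against 8.26% of all rows, and none was higher. Their median log2 change was -2.15 on the deposited scale and -1.17 after TMM scaling. The oligosaccharyltransferase subunit gene rpn1 had 50 and 54.8 CPM in M+D+ versus 436 and 257 in M-D+ (log2 change -2.65 ± 0.32, limma adjusted p = 0.00267). Calnexin, a lectin chaperone encoded by canx, had 42.3 and 51.3 CPM against 326 and 291 (-2.70 ± 0.30, limma adjusted p = 0.00267). The coat protein gene copb2, of vesicles that return to the endoplasmic reticulum, had 15.3 and 15.7 CPM against 151 and 122 (-3.05 ± 0.31, limma adjusted p = 0.00267). In all 3 genes both M-D+ libraries lay above every other library, and M+D+ lay below the other 6 by a smaller step or close to M+D-.

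Further members of the list are given as examples chosen after their values were seen. The lumenal chaperone gene hspa5 (BiP) had 0 and 0.7 CPM in M+D+ compared with 36.9 and 8.61 in M-D+ and 0.4 to 2.39 in the libraries without doxycycline (log2 change -3.87 ± 0.70, limma adjusted p = 0.00591). The disulfide isomerase gene pdia4 had 2.34 and 4.19 CPM in M+D+ against 107.6 and 34 in M-D+ and 7.51 to 13.2 elsewhere (-3.89 ± 0.54, limma adjusted p = 0.00345). Both hspa5 and pdia4 passed the filter on low values only through M-D+. The calreticulin gene calr3b changed by -4.15 and the co-chaperone gene dnajc3a by -3.65 (limma adjusted p = 0.00384 and 0.0029). For each of these, M-D+ library 1 held the highest value and M-D+ library 2 the next. Of the 47 genes, both M-D+ libraries lay above all 6 others in 38, and in 26 after TMM scaling, against 45.1% and 12.3% of all rows. Both M+D+ libraries lay below all 6 others in 11 of the 47, and in 9 after TMM scaling, against 26.9% and 13.3% of all rows. The list held 1.57% and 0.659% of tags in M-D+ compared with 0.295% and 0.428% in M+D+ and 0.346% to 0.502% in the libraries without doxycycline, so that M+D+ overlapped the latter. The 20 genes lower on both scales became 7 without M+D+ library 1, 16 without M+D+ library 2, 10 without M-D+ library 1 and 25 with M-D+ library 2 left out.

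**Figure D4:**
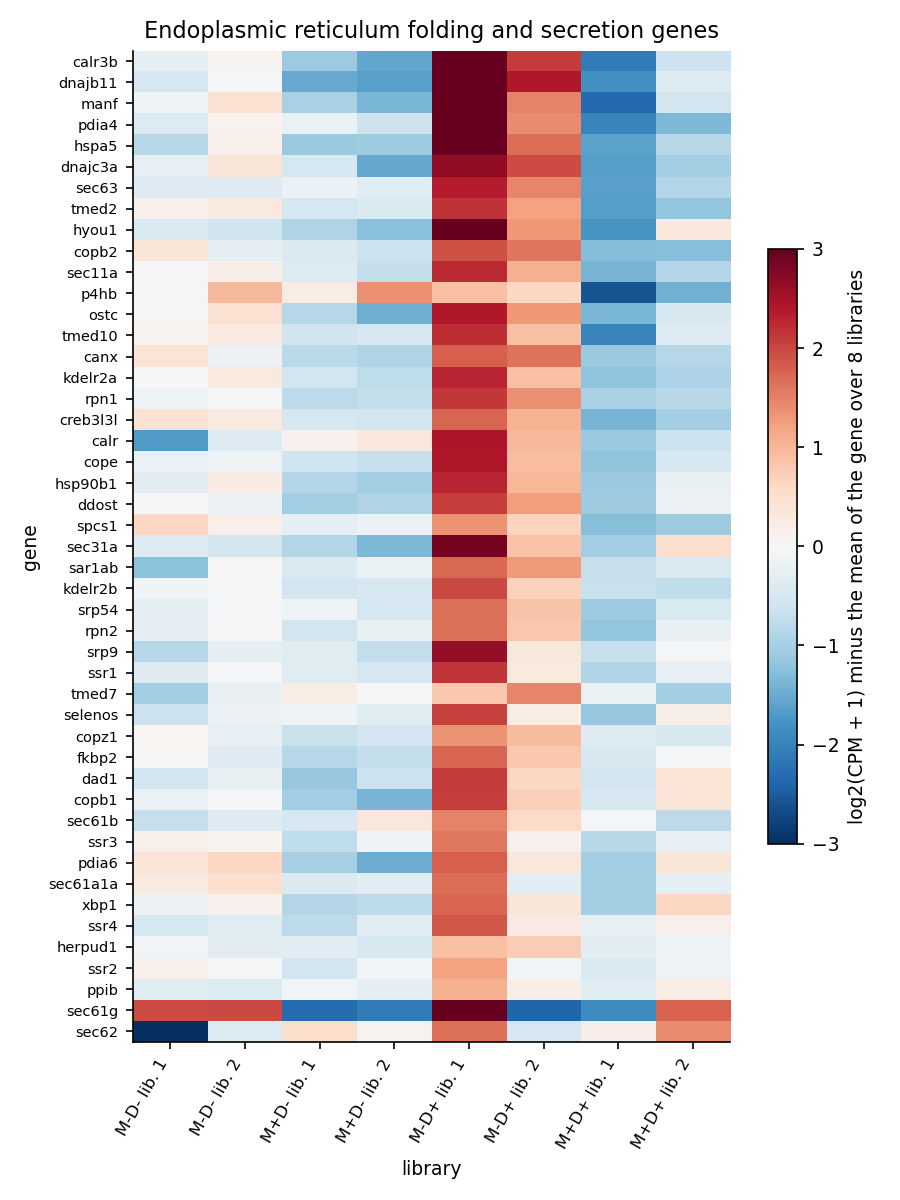
Each row is 1 of the 47 tested genes of endoplasmic reticulum folding and secretion, ordered by log2 change, and each column 1 of the 8 libraries. Color gives log2(CPM + 1) minus the gene's mean over the 8 libraries, with values beyond 3 either way shown in the end color. The M-D+ columns are red for most genes, more so in library 1, and the M+D+ columns are blue at the top of the list and near the libraries without doxycycline at the bottom.

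Proteasome genes, whose products form the particle that degrades tagged proteins, were likewise lower or not called on both scales. Of 38 tested, 13 (34.2%) were lower and none higher, against 8.26% and 2.78% of all rows, with a median of -1.70 on the deposited scale and -0.73 after TMM scaling. The lid subunit gene psmd7 had 3.44 and 5.24 CPM in M+D+ compared with 42.8 and 35.8 in M-D+ (log2 change -2.93 ± 0.35, limma adjusted p = 0.00267). The base subunit gene psmd2 and the core subunit gene psma3 changed by -2.25 ± 0.27 and -2.12 ± 0.26 (limma adjusted p = 0.00267 for both). Both M-D+ libraries lay above all 6 others in 33 of the 38 genes, and in 16 after TMM scaling, against 45.1% and 12.3% of all rows. The list held 0.247% and 0.263% of tags in M-D+ against 0.0696% and 0.0940% in M+D+ and 0.0943% to 0.121% elsewhere. None of the 38 was lower on both scales without M+D+ library 1, and 4 to 6 were without 1 of the other libraries.

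Cytosolic and mitochondrial chaperone genes went both ways. Of 28 tested, 4 (14.3%) were higher and 5 (17.9%) lower on both scales, against 2.78% and 8.26% of all rows. The higher ones were hsp90ab1, at 431 and 682 CPM in M+D+ against 183 and 165 in M-D+ (log2 change 1.64 ± 0.35, limma adjusted p = 0.00877), and the chaperonin subunits cct8 (1.82), cct6a (1.09) and cct2 (1.52), which fold actin and tubulin. The call of cct8 fell short without M+D+ library 2 (1.53). The lower ones included hspd1, the mitochondrial chaperonin, at 9.53 and 25.5 CPM against 194 and 136 (-3.29 ± 0.47, limma adjusted p = 0.00361). They also included the Hsp90 co-chaperone genes ptges3b (-3.09) and ahsa1b (-2.21), with hspa4a (-3.03) and trap1 (-2.74). The genes cct2, hspa4a and trap1 were named after their values were seen.

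Mitochondrial genes also divided. Of 38 genes of mitochondrial ribosomal proteins, 7 (18.4%) were lower and 1 (2.6%) higher on both scales, against 8.26% and 2.78% of all rows. Their median was -1.22 on the deposited scale and -0.31 after TMM scaling. The gene mrpl24 had 1.88 and 3.49 CPM in M+D+ compared with 25.0 and 40.8 in M-D+ and 8.84 to 25.9 elsewhere (log2 change -3.19 ± 0.39, limma adjusted p = 0.00267). The higher one, mrpl23, changed by 1.07 (limma adjusted p = 0.0475), and its call fell short without M-D+ library 1 (0.69), M+D+ library 1 (1.33) or M+D+ library 2 (0.82). Without 1 of the 4 libraries, 0 to 3 members were lower on both scales. Of 65 nuclear genes of oxidative phosphorylation, 5 (7.7%) were higher and 2 (3.1%) lower, with medians of -0.53 and 0.46. The pair atp5mc3a and atp5mc3b, both for subunit c of the ATP synthase ring, changed in opposite directions. The gene atp5mc3a had 114 and 173 CPM in M+D+ versus 855 and 771 in M-D+ (-2.52 ± 0.30, limma adjusted p = 0.00267). The gene atp5mc3b had 33.0 and 67.4 CPM against 13.1 and 11.1 (1.88 ± 0.39, limma adjusted p = 0.00825). The cytochrome c oxidase subunits cox7b and cox6a2 were higher by 1.87 and 1.48 (limma adjusted p = 0.00778 and 0.00618), and the cytochrome c gene cycsb changed by -2.92 (limma adjusted p = 0.00384).

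Few genes of glucose metabolism were called on both scales. Of 16 glycolysis genes 2 (12.5%) were higher on both scales, against 2.78% of all rows, and none lower. These were pgam2 and the lactate dehydrogenase gene ldhba, at 11.6 and 18.9 CPM in M+D+ against 1.78 and 2.04 in M-D+ (log2 change 2.44 ± 0.39, limma adjusted p = 0.00432). The genes ldha and pkma were lower on the deposited scale (-1.58 and -1.47, limma adjusted p = 0.0284 and 0.012) but not after TMM scaling (-0.74 and -0.48). The triosephosphate isomerase gene tpi1b was lower by the same measure (-1.01, limma adjusted p = 0.034) and at -0.01 after TMM scaling. The call of tpi1b fell short without any 1 of the 4 libraries (-0.90 to -1.13), that of ldha without M-D+ library 1 (-0.93), M+D+ library 1 (-1.55) or M+D+ library 2 (-1.60), and that of pkma without M+D+ library 1 (-1.38). Of 19 genes of gluconeogenesis and glycogen 3 (15.8%) were higher on both scales. Besides pck1 these were fbp1b, for fructose bisphosphatase, and gys2, for liver glycogen synthase, with changes of 1.38 and 1.01 (limma adjusted p = 0.018 and 0.0405). For fbp1b the M+D+ values of 176 and 365 CPM overlapped the 268 and 277 of M+D-, and M-D+ was lowest. The call of fbp1b fell short without M-D+ library 1 (1.32) or M+D+ library 2 (0.85), and that of gys2 fell short without M-D+ library 1 (0.71) or M+D+ library 2 (0.70).

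No lipid or amino acid gene was higher on both scales. The shares lower on both scales are to be read against 8.26% of all rows. Of 15 genes of lipid and cholesterol synthesis 3 were lower, with a median of -1.51 on the deposited scale and -0.56 after TMM scaling. They were elovl6, elovl2 at 15.6 and 9.43 CPM against 100.5 and 49.2 (log2 change -2.44 ± 0.40, limma adjusted p = 0.00464), and plin2, a lipid droplet coat gene, at 0.63 and 0.35 CPM against 10.7 and 16.5 (-3.27 ± 0.48, limma adjusted p = 0.00361). Both elovl6 and plin2 passed the filter on low values only through M-D+. Of 30 genes of fatty acid oxidation and the peroxisome 4 (13.3%) were lower. The very long-chain dehydrogenase gene acadvl had 5.16 and 7.68 CPM against 47.6 and 48.5 (-2.74 ± 0.29, limma adjusted p = 0.00267), and the trifunctional protein gene hadhab changed by -2.23. The gene acad11, named after its values were seen, was also lower on both scales. Of 46 urea cycle and amino acid breakdown genes 2 (4.3%) were lower on both scales, cbsa (-2.44) and gcdha (-2.1). After TMM scaling 9 of the 46 were higher, and none was on the deposited scale, against 8.40% and 2.78% of all rows. Without 1 of the 4 libraries the numbers lower on both scales were 1 to 4 for lipid synthesis, 1 to 3 for oxidation and 0 to 2 for amino acids.

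Genes of bile acid and xenobiotic metabolism showed a like split by scale. Of 55 tested, 31 were lower on the deposited scale, where 45.0% of all rows were, and 5 (9.1%) on both scales, near the 8.26% of all rows, with medians of -1.34 and -0.35. The flavin monooxygenase gene fmo5 had 10.5 and 5.59 CPM in M+D+ against 77.9 and 109 in M-D+ and 23.9 to 70.5 elsewhere (log2 change -3.42 ± 0.35, limma adjusted p = 0.00267). The others, named after their values were seen, were the cytochrome P450 gene cyp2k18 (-3.87), the glutathione transferases gsto2 (-3.46) and gstt2 (-2.35) and the quinone reductase nqo1 (-2.87). Without 1 library 1 to 6 members were lower on both scales.

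Secreted plasma protein genes held 2.1% and 2.92% of tags in M+D+ compared with 4.30% and 6.32% in M-D+, with 5.30% to 7.03% in the libraries without doxycycline. An exact two-sided permutation test of 2 against 2 gave p = 0.333, the smallest it allows. Of 34 tested, 15 were lower on the deposited scale and 3 (8.8%) on both, against 45.0% and 8.26% of all rows, with medians of -1.11 and -0.11, so the list's members lay near the median of all rows. The fetuin gene ahsg2 had 258 and 486 CPM in M+D+ versus 1896 and 3187 in M-D+ (log2 change -2.79 ± 0.44, limma adjusted p = 0.0043), and apoa1a is given above. The third was igf1, the liver-made growth factor, named after its values were seen, at 1.25 and 5.94 CPM against 22.0 and 26.3 (-2.66 ± 0.50, limma adjusted p = 0.00622). In 17 of the 34 genes both M+D+ libraries lay below all 6 others, against 26.9% of all rows, and in 6 of the 34 after TMM scaling, against 13.3%. Without M+D+ library 1 none was lower on both scales, and 2 or 3 were without 1 of the other libraries.

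Of 29 genes of complement and coagulation 2 (6.9%) were higher on both scales and 1 (3.4%) lower, against 2.78% and 8.26% of all rows. The higher ones were c3a.2 and c3b.1, both for complement C3, the latter at 8.13 and 8.73 CPM against 3.57 and 2.94 (log2 change 1.15 ± 0.36, limma adjusted p = 0.0332). The call of c3b.1 fell short without any 1 of the 4 libraries, with changes of 1.04 to 1.26. The lower one was hbl4, a lectin of the mannose-binding type, at 5 and 12.2 CPM against 57.7 and 69.8 (-2.85 ± 0.41, limma adjusted p = 0.00361). The coagulation genes serpind1 and f9a were lower on the deposited scale only (-1.73 and -1.21 there, -0.75 and -0.21 after TMM scaling), and both fell short without M+D+ library 1 (-1.23 and -1.11), serpind1 also without M-D+ library 1 (-1.48).

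Genes of cell division, a process that Myc is known to drive, were not higher in M+D+. Few were measured: 7 of 44 listed rows of S phase and DNA replication and 6 of 32 of G2 and mitosis passed the filter on low values. On the deposited scale 5 of the 7 and all 6 of the 6 were lower, and on both scales 1 and 3 were, against 45.0% and 8.26% of all rows. With so few rows these counts say little beyond the shift of all rows, and 4 of the 7 and 2 of the 6 passed the filter only through M-D+. The origin recognition gene orc3 had 0.16 and 1.05 CPM against 10.1 and 6.8 (log2 change -2.59 ± 0.49, limma adjusted p = 0.00632), and it passed the filter only through M-D+. The cyclin gene ccnd1 had 19.2 and 19.9 CPM against 83.8 and 58.2, lower on the deposited scale (-1.79, limma adjusted p = 0.00544) but not after TMM scaling (-0.80). In M+D+ it lay within the 17.46 to 28.62 CPM of the libraries without doxycycline. In the G2 and mitosis list the 3 were tubb2b, the tubulin gene tuba8l4 (-2.72) and hmgb2a (-2.18), a chromatin protein, all of which also serve cells that do not divide. The other listed rows stayed under the filter, so for most division genes a difference was not detectable at this depth.

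Genes of nucleotide and polyamine synthesis were lower or not called on both scales. Of 20 tested, 2 were lower, a share near the 8.26% of all rows. The purine salvage gene hprt1 had 2.19 and 2.44 CPM against 25.6 and 18.1 (log2 change -2.77 ± 0.40, limma adjusted p = 0.00361). The other was the uridine-cytidine kinase gene uck2b (-2.27). Both hprt1 and uck2b passed the filter on low values only through M-D+. The antizyme gene oaz1a, a brake on polyamine synthesis, was lower on the deposited scale only (-2.04 there, -1.04 after TMM scaling). Of 53 genes of splicing and RNA binding 2 (3.8%) were higher, caprin1b and sf3b2, and 5 (9.4%) lower. These shares were near the 2.78% and 8.26% of all rows, and the medians were -1.36 and -0.45. The increase of sf3b2 (1.74, limma adjusted p = 0.0481) fell short without M-D+ library 2 (1.19), M+D+ library 1 (2.26) or M+D+ library 2 (1.22). The ribonucleoprotein gene hnrnpa0b had 16.6 and 26.5 CPM against 184 and 149 (-2.92 ± 0.33, limma adjusted p = 0.00267), and rbm8a, of the exon junction complex, changed by -2.06. The other 3 lower, named after their values were seen, were snrpe, srsf1a and snrpa1.

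Of 16 genes of the p53 pathway and apoptosis 1 (6.2%) was higher and 1 (6.2%) lower on both scales, against 2.78% and 8.26% of all rows. Both were sestrins, stress-induced inhibitors of TOR signalling. The gene sesn1 had 91.9 and 107 CPM in M+D+, 25.0 and 23.8 in M-D+, while without doxycycline it had 67.9 and 28.5 in M+D- against 8.18 and 12.6 in M-D- (log2 change 1.98 ± 0.43, limma adjusted p = 0.00928). The gene sesn3 had 3.44 and 0.7 CPM against 25.6 and 15.6 (-2.94 ± 0.49, limma adjusted p = 0.00494). After TMM scaling its limma adjusted p was 0.037, and edgeR did not call it (edgeR adjusted p = 0.0575). The caspase genes casp3a and casp6a, which carry out apoptosis, were lower on the deposited scale only (-1.80 and -1.85 there, -0.92 and -0.98 after TMM scaling).

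Of 12 interferon response and antigen presentation genes 4 (33.3%) were lower on both scales and none higher, against 8.26% and 2.78% of all rows, with medians of -1.27 and -0.33. Besides ifi27.1 they were rsad2, an antiviral enzyme gene, at 0.16 and 0 CPM against 7.13 and 10.9 (log2 change -3.19 ± 0.44, limma adjusted p = 0.00342), and b2m, the light chain of class I antigen-presenting molecules, at 66.6 and 70.18 CPM against 375 and 376 (-2.44 ± 0.31, limma adjusted p = 0.00286). The fourth was gbp1, named after its values were seen. The gene rsad2 passed the filter on low values only through M-D+. Without 1 library 2 to 4 members were lower on both scales.

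Of 17 iron and heme genes 1 (5.9%) was higher and 2 (11.8%) lower on both scales, against 2.78% and 8.26% of all rows. The iron exporter gene slc40a1 had 43.6 and 47.5 CPM against 23.8 and 21.3 (log2 change 0.98 ± 0.34, limma adjusted p = 0.0441), and its call fell short without any 1 of the 4 libraries (0.91 to 1.06). The iron storage gene fth1a had 15.0 and 74.7 CPM against 370 and 239 (-3.10 ± 0.64, limma adjusted p = 0.008), and the heme synthesis gene cpox 0 and 0.35 CPM against 11.3 and 6.8 (-3.08 ± 0.45, limma adjusted p = 0.00361). For fth1a the limma adjusted p was 0.0407 after TMM scaling, and edgeR did not call it (edgeR adjusted p = 0.0767). The gene cpox passed the filter on low values only through M-D+. Of 8 circadian clock genes 2 (25.0%) were higher, against 2.78% of all rows. The repressor gene bhlhe40 had 167 and 130.2 CPM against 57.7 and 65.5 (1.25 ± 0.40, limma adjusted p = 0.0362). The nuclear receptor gene nr1d1 had 88.8 and 63.9 CPM against 37.5 and 35.3 (1.03 ± 0.34, limma adjusted p = 0.0395). Both groups lay below the 100.39 to 175.37 CPM of nr1d1 in the libraries without doxycycline, M-D+ farther than M+D+. The call of bhlhe40 fell short without any 1 of the 4 libraries (1.07 to 1.42), and that of nr1d1 without M-D+ library 1 (1.07), M-D+ library 2 (0.99) or M+D+ library 1 (0.80). Time of day of sampling is not given in the labels used here. Of 12 genes of glucocorticoid, thyroid and steroid enzymes dio2 and hsd11b2 (16.7%) were lower and pck1 (8.3%) higher on both scales. Over all rows the shares were 8.26% and 2.78%. The glucocorticoid-induced gene fkbp5 was lower on the deposited scale only (-1.52 there, -0.54 after TMM scaling) and fell short without M+D+ library 1 (-1.32).

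**Figure D5:**
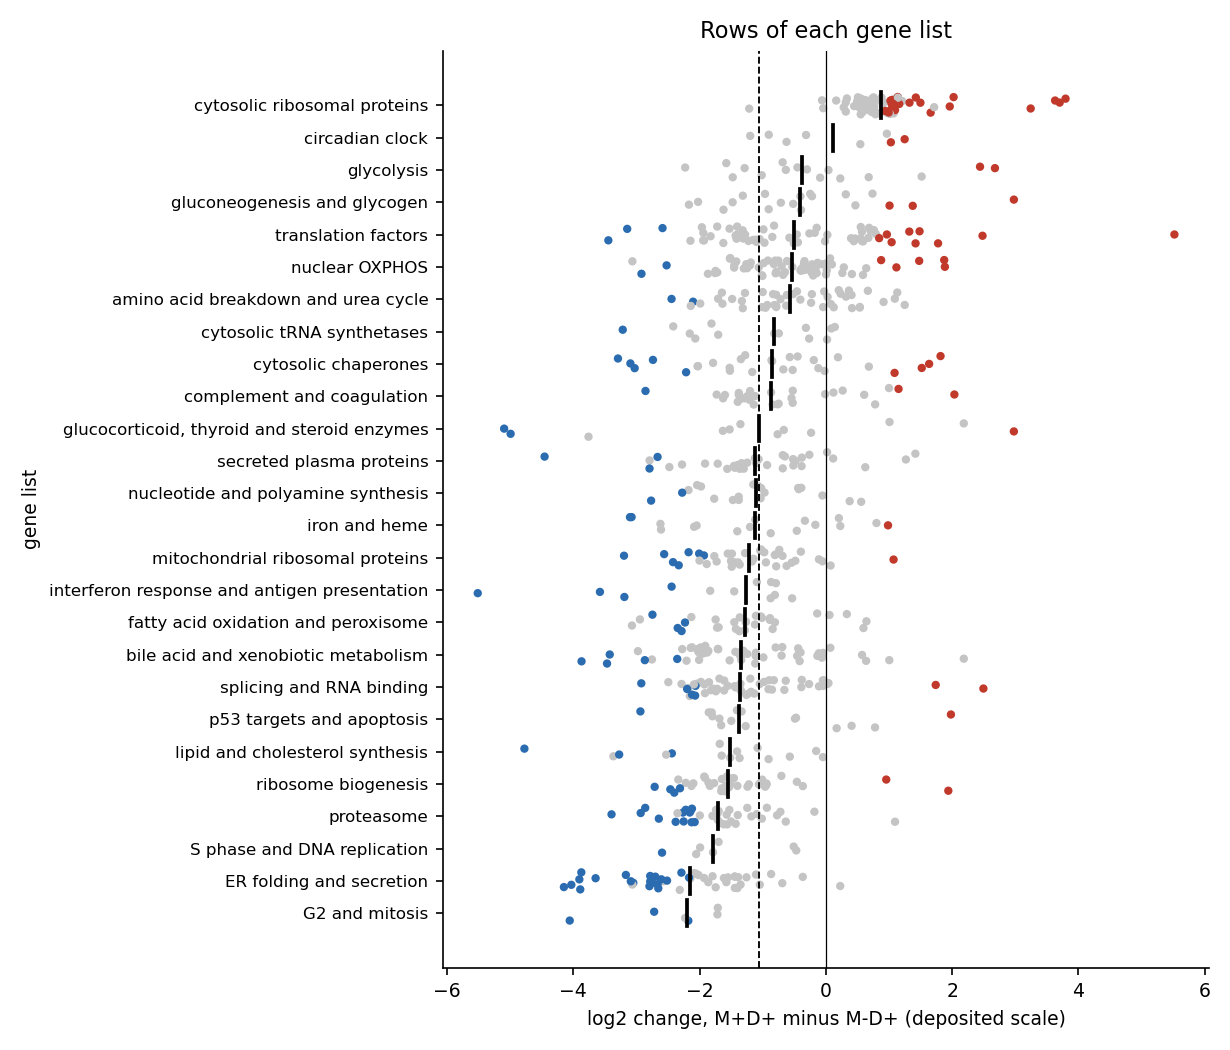
Each point is a tested row of 1 of 26 gene lists (y axis, ordered by median), at its log2 change of M+D+ minus M-D+ on the deposited scale (x axis). Red points were higher and blue points lower on both scales, gray points were not called on both. Thick bars are list medians and the dashed line is the median of all rows at -1.05. Cytosolic ribosomal proteins lie at the top with a median of 0.87, and endoplasmic reticulum genes (-2.15) and the 6 genes of G2 and mitosis (-2.20) at the bottom.

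Markers of cell types that a liver sample can hold were set beside these results. Shares of markers lower on both scales are to be read against 8.26% of all rows. The hepatocyte markers took 20.5% and 15.5% of tags in M+D+ compared with 11.8% and 26.4% in M-D+. Of 17 tested, 2 (11.8%), apoa1a and ahsg2, were lower on both scales. Most of the hepatocyte share of tags is fabp10a. The 17 other listed rows, summed after the values were seen, took 1.68% and 2.55% in M+D+ against 3.82% and 5.38% in M-D+ and 4.55% to 5.37% in the libraries without doxycycline, so that M+D+ was lowest. Exocrine pancreas markers, from tissue that adjoins the liver in zebrafish, took 0.0753% and 0.117% in M+D+ versus 0.321% and 0.161% in M-D+. They took 0.14% to 0.431% in the libraries without doxycycline. Of 15 tested, 1 (6.7%), sycn.2, was lower on both scales (log2 change -2.62, limma adjusted p = 0.00619). Macrophage markers took 0.0562% and 0.0648% in M+D+ compared with 0.0695% and 0.178% in M-D+. They took 0.0478% to 0.0626% in the libraries without doxycycline, which M+D+ overlapped. Of 11 tested, 1 (9.1%), the granulin gene grna.1, was lower on both scales (-3.20, limma adjusted p = 0.00613). Its M+D+ values of 3.28 and 11.5 CPM overlapped the 4.78 to 9.54 CPM of the libraries without doxycycline. In erythrocyte markers the shares were 0.0187% and 0.0254% against 0.0415% and 0.0505%, with 0.0387% to 0.0546% in the libraries without doxycycline. None of 5 was called on both scales. The gene hemgn was lower on the deposited scale only (-1.91), while 2 of the 5 were higher after TMM scaling only. Of 4 muscle markers pgam2 was higher on both scales, while the list's share was 0.0556% and 0.0374% against 0.0261% and 0.0571%, and desma and mylpfa were at 0 in all 4 libraries.

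In the other marker lists no gene was called on both scales. Intestine markers took 0.0218% and 0.0314% in M+D+ versus 0.123% and 0.0776% in M-D+, with apoa4b.2 lower on the deposited scale (-2.28) but not without M+D+ library 1 (-2.06). The intestine share in M+D+ overlapped the 0.018% to 0.0423% of the libraries without doxycycline. Neutrophil markers took 0.00927% and 0.0108% against 0.0267% and 0.0339%, and the lower genes on the deposited scale were cpa5 (-1.39), cxcl8a (-2.30) and s100a10b (-2.47). Their share was 0.0196% to 0.0387% in the libraries without doxycycline. A large part of these shares was cpa5, which is also in the exocrine pancreas list. It stood at 60.6 and 70.9 CPM in M+D+ against 196 and 152 in M-D+. Of the cholangiocyte markers anxa4 ran from 17.8 to 590 CPM within M-D+, and her6 was at 0 in all 4 libraries. In the lymphocyte, endothelium and stellate cell lists il7r, egfl7 and mmp2 were lower on the deposited scale only (-1.30, -1.50 and -1.4), and tie1, pdgfra and vim were at 0 in all 4. The oocyte markers bmp15, gdf9 and nanos3 were at 0 in all 4, and zp3a.1 had 1.09 and 15.4 CPM in M+D+ compared with 34.5 and 4.98 in M-D+. The deposited-scale calls of cpa5, cxcl8a, il7r, egfl7 and mmp2 each fell short without 2 or more of the 4 libraries taken 1 at a time. The part of cell make-up in the results was not tested, and in bulk tissue fewer cells of a type and less RNA per cell cannot be told apart.

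The same genotypes without doxycycline gave a reference for what the transgene alone accompanies. Between M+D- and M-D- limma called none of the 4288 rows on either scale, with 388 rows at an unadjusted p below 0.05 on the deposited scale and 456 after TMM scaling. With edgeR none was called (434 unadjusted), and DESeq2 called 13 higher and 18 lower. Of the 119 rows higher on doxycycline, M+D- lay above M-D- without overlap in 52 (43.7%), against 27.5% of all rows, and below it in 10. Of the 354 lower, M+D- lay below M-D- without overlap in 208 (58.8%), against 24.7% of all rows, and above it in 38. The median changes of these rows without doxycycline were small, at 0.27 and -0.41 on the deposited scale. In pabpc4, eif4ebp3l, pgam2 and sesn1 both M+D- libraries lay between those of M-D- and M+D+, while in rps6, rpl12, rpl4 and tpt1 they overlapped M-D-. These differences share no library with the comparison on doxycycline.

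Whether the genotype difference was larger on doxycycline than without it was tested as an interaction. On the deposited scale 14 rows (0.326%) had a higher and 447 (10.4%) a lower difference on doxycycline, where the median of all rows is itself shifted. After TMM scaling 7 rows (0.163%) were called higher and none (0.00%) lower, with 694 rows at an unadjusted p below 0.05, while edgeR called 4 higher and none lower and DESeq2 114 and 42. The 7 were rps6, rpl4, rpl12, rpl22, tpt1, caprin1b and mipepb, the last named after its values were seen, and mipepb passed the filter only through M+D+. For rps6 the difference between the 2 genotype differences was 3.90 ± 0.61 (limma adjusted p = 0.0379; 4.98 after TMM scaling), and for caprin1b it was 2.37 ± 0.40 (limma adjusted p = 0.0379; 3.45). On the deposited scale the largest lower values with at least 20 CPM over the 8 libraries were in hsd11b2, dhrs11b.2, pla2g3 and dio2. For hsd11b2 it was -6.52 ± 1.17 (limma adjusted p = 0.0379; -5.61 and 0.0936 after TMM scaling), and for dio2 it was -5.33 ± 1.19 (limma adjusted p = 0.0417; -4.27 and 0.122). Without any 1 of the 4 libraries off doxycycline, or without M+D+ library 1, no row was called on the deposited scale. After TMM scaling no row was called without any 1 of the 4 libraries off doxycycline or without M-D+ library 2.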

How the data were processed

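The deposited values are CPM, the tags of a row relative to its library total, as normalized by the authors, and each library sums to the same total within rounding. The assay was 3' RNA-SAGE on total RNA with SOLiD sequencing, per the labels' protocols. The sources used here do not give the aligner, the genome build or how tags were assigned to transcripts. Groups were taken from the sample titles. Files were joined on their GI number, with an absent row taken as 0. Values are whole multiples of the worth of 1 tag, and 100% of them came out whole within 0.1 tags, which gave totals of 1682372 to 6399932 tags. Intervals and floors cover counting error only, since tags carry no molecular identifiers. Rows without a RefSeq accession (122, with 1.25% to 4.72% of a library's tags) were kept.

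RefSeq's table for assembly GRCz12tu gave symbols, and nothing else was taken from it. Of 4288 rows tested 3538 had one (82.5%), and the remaining 750 stay unnamed but are counted. Tests used limma 3.58.1 (R 4.3.3) with an intensity trend on log2(CPM + 1) of all 8 libraries in 1 fit of 4 group means (4 residual and 3.98 prior degrees of freedom), two-sided, and p-values were adjusted by Benjamini-Hochberg over 4288 rows, with calls below 0.05. Changes on this scale understate those of low rows. TMM factors were computed on the deposited values. As alternatives edgeR 4.0.16 (quasi-likelihood) and DESeq2 1.42.0 were run on the recovered tag counts, with other pseudocounts, filters, a replicate block, 4 libraries only, and each library left out. A library left alone in its group was assumed to vary like the other groups. Counts were also simulated with 200 changed rows among 4288. There limma on the deposited scale called 54% of rows raised by 2 on the log2 scale and 98% of those raised by 3. It called 80% of rows lowered by 2 and 98% of those lowered by 3, with 19 false calls. The median change was 1.72 for rows raised by 2 and -2.20 for rows lowered by 2. Changed rows averaged at least 20 CPM, unchanged rows had the same mean in every group, and all rows shared a dispersion. The simulation held no broad shift of M-D+, so these rates do not cover the shift seen in the data.

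The rows compared, the gene lists, the settings and the tests were chosen with earlier results of these data known. Genes were named by rule: the 12 largest rises and falls called on both scales that had a symbol, averaged 20 CPM or more and did not overlap between groups, up to 3 genes each way per list by smallest p on the deposited scale (2 as values where none was called), the 4 largest interaction values each way, and myca, mycb, mych, fabp10a and krt4. A gene that this rule names is not reported here. Any other gene is said to be named after its values were seen. Lists are described by counts and medians, without a set test.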

Additional observations from a re-analysis of the deposited data

Results flagged for a closer look

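For 7 genes the difference between genotypes on doxycycline was larger than that without doxycycline, on the deposited scale and after TMM scaling (limma interaction test, adjusted over 4288 rows). On the deposited scale the difference was 3.90 for rps6, 3.87 for rpl4, 3.83 for rpl12, 2.80 for rpl22, 3.26 for tpt1, 2.37 for caprin1b and 3.64 for mipepb, all log2, with limma adjusted p of 0.0379 to 0.0408. After TMM scaling the limma adjusted p ran from 0.0262 to 0.0432. Without doxycycline the genotype difference of these genes was -0.24 to 0.44 on the deposited scale. The mitochondrial peptidase gene mipepb had 9.38 and 13.97 CPM in M+D+ against 0 and 0.23 in M-D+ and 1.82 to 3.47 in the libraries without doxycycline. It passed the filter on low values only through M+D+, the group where it is high. On the deposited scale no row was called without any 1 library of M-D- or M+D-, or without M+D+ library 1. After TMM scaling none was called without any 1 library of M-D- or M+D- or without M-D+ library 2, and higher calls numbered 9 with M-D+ library 1 left out, against 5 and 2 with M+D+ library 1 or 2 left out.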

How the results depend on the processing

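With 8 libraries and no further scaling limma called 119 rows higher and 1930 lower in M+D+ than in M-D+, and leaving out each library in turn, with or without TMM scaling, gave 52 to 343 higher and 87 to 1733 lower. The counts were 360 and 354 after TMM scaling, 342 and 328 with edgeR, 408 and 329 with DESeq2, 38 and 930 in the 4 libraries alone, 8 and 1 in these with TMM scaling, and 0 and 0 with edgeR in these (996 rows at an unadjusted p below 0.05). A filter at 20 CPM gave 88 higher and 1150 lower among 2128 rows, so fewer rows were tested.

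The replicate numbers were shared by the groups without a stated pairing. The deviations of same-numbered libraries correlated at -0.323 between M-D+ and M+D+ and at -0.141 to 0.036 for the other pairs of groups. Whether same-numbered or cross-numbered libraries share a factor cannot be told from these values. With the replicate number as a block 93 rows were higher and 1683 lower, and 251 and 214 with TMM scaling. With M+D+ numbers crossed the block gave 96 and 1843, and 316 and 319 with TMM scaling.

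The interaction had 14 rows higher and 447 lower, and 0 to 42 and 0 to 564 with 1 library left out. It had 7 and 0 after TMM scaling (694 unadjusted), 7 and 72 with no filter, 24 and 550 at 20 CPM, 0 and 6 with the block, 0 and 0 with the block and TMM scaling, 2 and 2 with the crossed block, 6 and 1 with that and TMM scaling, 4 and 0 with edgeR and 114 and 42 with DESeq2. Between M+D- and M-D- DESeq2 called 13 higher and 18 lower, and limma and edgeR called none.

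Of 125 named genes called on the deposited scale, 83 kept the call after TMM scaling, 79 with edgeR, 80 with DESeq2, 95 in the 4 libraries, 8 in these with TMM scaling, 0 with edgeR in these, 116 with the block, and 101 to 109 with an M+D+ or M-D+ library left out (43 to 67 with TMM scaling as well). The ribosomal protein share differed by 19.3 percentage points, by 17.1 without the 5 most abundant rows and by 12.7 to 25.9 with a library left out.

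Reversals were few. The change of tpi1b was 0.08 with edgeR in 4 libraries and 0.06 with DESeq2. With libraries left out, on both scales, log2 changes ran from -0.43 to 2.12 for fabp10a, -1.13 to 0.24 for tpi1b, -2 to 0.35 for krt4, -1.72 to 0.26 for c1qb, -1.76 to 0.28 for il7r, -1.52 to 0.03 for got2a, -2.80 to 0.96 for zp3a.1, -2.82 to 0.61 for zp3a.2, -1.76 to 0.12 for fgg, -2.12 to 0.36 for mmp2, -2.77 to 0.23 for lygl1 and -4.72 to 1.32 for anxa4. The cause was not tested. The crossed block, TMM scaling in 4 libraries and TMM scaling with a library without doxycycline left out were chosen after seeing the data. In M-D+ library 1, the shallowest of the 4, 1 tag is worth 0.5944 CPM, which limits changes in low rows.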
